A study of Mus musculus with 12 samples.

Results

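This report covers 10 genes of hepatic fatty acid synthesis, taken by their symbols from a table of raw read counts for 18227 genes. Acly, Acaca, Acacb, Fasn, Elovl6, Scd1 and Me1 encode enzymes, Srebf1 and Mlxipl encode transcription factors, and Thrsp encodes the small lipogenic protein Spot 14. All 10 had a row and all 10 passed the filter on low counts. The mice were WT BALB/C males aged 8 weeks. Each received anti-Gr1 antibody or a non-targeting isotype antibody, 200 µg by the intraperitoneal route, and the same dose again 2 days later, when 70% of the liver was removed. Hepatocytes were taken 1 or 2 days after this operation (post-operative day, POD1 and POD2), which gives 4 groups of 3 poly A libraries that share strain, sex, age and operation. No group without hepatectomy is among them, so each value describes a liver that was already regenerating. Hepatocytes were separated from other liver cells by collagenase perfusion, a filter and a slow spin, with no sort. Levels are CPM, a library's counts scaled to a common total, with library sizes scaled by TMM, the trimmed mean of M-values.

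Fatty acid synthesis starts from citrate that has left the mitochondrion. ATP citrate lyase (Acly) splits it to acetyl-CoA, acetyl-CoA carboxylase makes malonyl-CoA, and fatty acid synthase (Fasn) builds palmitate from both with NADPH, part of which comes from malic enzyme (Me1). Elovl6 lengthens palmitate to stearate, and Scd1 puts in the double bond that makes oleate. In liver, SREBP-1c (from Srebf1) responds to insulin and ChREBP (from Mlxipl) to glucose, and both raise transcription of these enzymes. Regenerating liver is known to store triglyceride for a short time after hepatectomy.

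Library totals ran from 13189392 to 15822043 counts. The libraries of a group are not said to be separate animals, so a p-value here speaks only of how much these samples varied, and that variation may be technical. In 3 of 66 pairs of libraries the counts were near-identical, with a chi-square per gene of 1.68, 3.73 and 5.69. Resampling 1 library would give about 1, and the other 63 pairs had at least 63.8. Replicates 1 and 2 of isotype POD2 and replicates 1 and 2 of anti-Gr1 POD2 were therefore counted as 1 sample each, which leaves n = 3 at POD1 and n = 2 at POD2 for both antibodies. The remaining pair has different labels. It is anti-Gr1 POD1 replicate 3 and anti-Gr1 POD2 replicate 3, in which the 10 genes differed by ratios of 0.939 (Me1) to 1.202 (Acacb). Both were kept as labelled, and results that rest on them are also given without them. Ly6g, the granulocyte surface gene whose product the anti-Gr1 antibody binds, ranged from 0.246 to 1.98 CPM with isotype and from 24.2 to 54.9 CPM with anti-Gr1. It was thus higher where the labels name depletion, and every direction below refers to the libraries as labelled. Hepatocyte markers were present: 11 of 12 listed genes were in the table and none was at 0 in any library.

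Bases before the start site are shown for a pair of genes that moved together, Fasn and Srebf1, and for Acly, the flattest of the 10. Each is the 250 bases before a start site, 5′ to 3′ on the gene's strand, from RefSeq on GRCm38.p6, a C57BL/6J reference and not the BALB/C genome of these mice. Capitals mark CCAAT boxes (CCAAT, or ATTGG on the other strand) and GC boxes (GGGCGG, or CCGCCC on the other strand). The windows are chr11:120824548-120824797 for Fasn, chr11:60222582-60222831 for the outermost of 3 Srebf1 start sites, and chr11:100528001-100528250 for Acly, all on the minus strand.
Fasn: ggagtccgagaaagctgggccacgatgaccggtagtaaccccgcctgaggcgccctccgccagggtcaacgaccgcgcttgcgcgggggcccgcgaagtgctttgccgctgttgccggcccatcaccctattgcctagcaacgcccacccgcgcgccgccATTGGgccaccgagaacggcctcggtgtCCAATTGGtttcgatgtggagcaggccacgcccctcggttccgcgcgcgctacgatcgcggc
Srebf1: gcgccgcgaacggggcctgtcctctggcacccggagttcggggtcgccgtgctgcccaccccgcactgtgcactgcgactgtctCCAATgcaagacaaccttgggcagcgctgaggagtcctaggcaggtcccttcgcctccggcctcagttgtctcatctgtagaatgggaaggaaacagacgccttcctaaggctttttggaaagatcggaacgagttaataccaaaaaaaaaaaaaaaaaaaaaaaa
Acly: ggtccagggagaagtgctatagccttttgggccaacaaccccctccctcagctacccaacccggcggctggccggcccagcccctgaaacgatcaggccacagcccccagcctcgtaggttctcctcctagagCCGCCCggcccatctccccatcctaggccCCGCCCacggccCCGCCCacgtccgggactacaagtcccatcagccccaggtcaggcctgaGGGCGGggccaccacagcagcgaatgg
The Fasn window held 3 CCAAT matches, of which 2 overlap in the last capital run, and that run also contains the only CANNTG match, so these are not separate sites. The Srebf1 window shown held 1 CCAAT match and no GC box, and the Acly window held 4 GC boxes and no CCAAT match. The windows of the other Srebf1 start sites held 2 GC boxes each, so the absence of GC boxes holds for the outermost start site alone. The window before start site 60210471 also held 1 CCAAT match and 1 CANNTG match. Start sites were not assigned to products of the gene, so the window shown need not be that of SREBP-1c. Over all 32851 promoter windows of the same length, 33.8% held CCAAT, 32.7% held GGGCGG and 66.2% held CANNTG. A sterol regulatory element written as TCACNCCAC was in none of these 3 windows and in 1.05% of all. Windows were found for 9 of the 10 genes. Scd1 was named only. A match is a description of letters, and the counts do not show which start site was used.

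Per kb of exon, Scd1 was the highest of the 10 and Acaca the lowest in all 4 groups. Scd1 had 49.6 ± 19.1 CPM per kb at isotype POD1 (SD, n = 3) and 76.3 ± 8.95 at isotype POD2 (SD, n = 2), and Acaca had 0.571 ± 0.0883 and 2.21 ± 0.0758 in the same groups. Acly stood second in 3 groups, and Srebf1, at 56.0 ± 5.84 CPM per kb, stood second at isotype POD2. Acaca and Acly are both on chromosome 11, as are Fasn and Srebf1 (GENCODE M21, GRCm38: Acaca 84129672 to 84401651, Acly 100476353 to 100528000, Fasn 120805846 to 120824547, Srebf1 60199089 to 60222581).

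**Figure D1:**
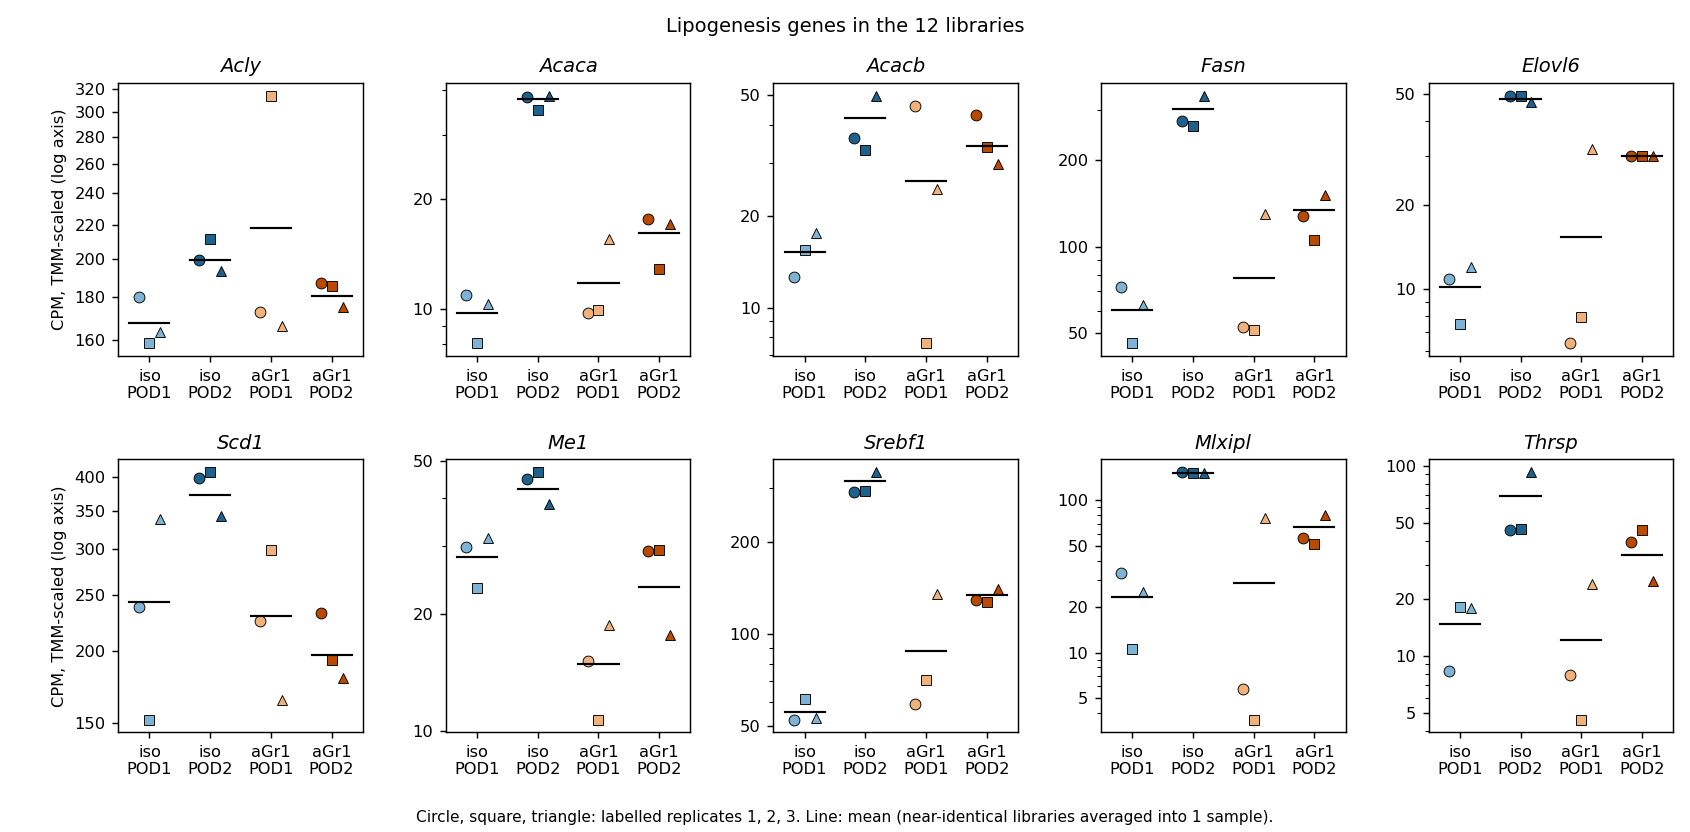
Level of each of the 10 genes in the 12 libraries, in TMM-scaled CPM on a log axis, by antibody (iso, isotype; aGr1, anti-Gr1) and day. Points are libraries and lines are group means; all 10 genes were higher in the 3 isotype POD2 libraries than in the 3 isotype POD1 libraries, and anti-Gr1 POD1 replicate 3 (triangle) lies level with anti-Gr1 POD2 replicate 3.

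In the isotype libraries, some of the 10 genes were several times higher on day 2 than on day 1, while Acly, Scd1 and Me1 had smaller differences that did not pass the test. Acaca, Fasn, Elovl6, Srebf1 and Thrsp rose, 5 of the 10 genes, against 12.6% of all 15647 genes tested that were called higher (edgeR's quasi-likelihood test, Benjamini-Hochberg adjusted p under 0.05). None fell. The median log2 difference was 2.01 over the 10 genes and -0.06 over all genes. The 3 libraries of each day did not overlap for any of the 10, with day 2 higher, which was also so for 32.3% of all genes. These levels were scaled over 12 libraries and the main fit over 10 samples. Fits on 12 libraries and on 10 samples gave a median of all genes of 0.03 and -0.06. A gap as narrow as that of Scd1 (339 against 342 CPM) can depend on this choice. The summed hepatocyte markers were also higher in the day 2 libraries, with values given further on. In bulk samples the number of cells of a type, the RNA per cell and a change of the marker genes themselves cannot be told apart.

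At the entry to the pathway the differences were small. Acly, which makes cytosolic acetyl-CoA, was at 180, 158 and 164 CPM in the isotype POD1 libraries and at 200, 211 and 194 CPM in the isotype POD2 libraries. Me1, which supplies NADPH, was at 29.8, 23.4 and 31.4 CPM and then at 44.7, 46.7 and 38.7 CPM. The days did not overlap for either gene, but neither difference passed the test: the log2 difference was 0.18 ± 0.27 (SE) for Acly and 0.50 ± 0.29 for Me1 (edgeR adjusted p = 0.634 and 0.206). Without scaling factors, which moves the median of all genes to -0.73, both differences and that of Scd1 were below 0.

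The carboxylases that make malonyl-CoA differed in how tightly they were measured. Acaca, whose cytosolic product feeds synthesis, was at 10.9, 8.04 and 10.3 CPM on day 1 and at 38.3, 35.2 and 38.6 CPM on day 2. It rose 3.65-fold (log2 1.87 ± 0.24, edgeR adjusted p = 0.00166). Acacb, the isoform at the mitochondrial surface whose malonyl-CoA restrains fatty acid import, was at 12.6, 15.5 and 17.5 CPM and then at 36.2, 32.96 and 49.9 CPM. Its log2 difference of 1.39 ± 0.58 did not pass (edgeR adjusted p = 0.0944), although all day 2 libraries lay above all day 1 libraries.

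Fasn, which carries out every step from malonyl-CoA to palmitate, was at 72.6, 46.1 and 62.7 CPM in the isotype POD1 libraries and at 273, 263 and 336 CPM in the isotype POD2 libraries. It rose 4.72-fold (log2 2.24 ± 0.42, edgeR adjusted p = 0.00557). Elovl6, the elongase that acts on palmitate, was at 10.9, 7.48 and 12.03 CPM and then at 49.5, 49.4 and 47.1 CPM. It rose 4.50-fold (log2 2.17 ± 0.61, edgeR adjusted p = 0.0286). Scd1, the delta-9 desaturase, moved less: it was at 238, 152 and 339 CPM on day 1 and at 400, 409 and 342 CPM on day 2. Its highest day 1 library nearly met its lowest day 2 library, and its log2 difference of 0.54 ± 0.35 did not pass (edgeR adjusted p = 0.254).

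Among the regulators, Srebf1 was at 52.4, 61.1 and 53.2 CPM on day 1 and at 292, 293 and 339 CPM on day 2, and rose 5.39-fold (log2 2.43 ± 0.33, edgeR adjusted p = 0.00196). Mlxipl had the largest fold of the 10 genes and the widest spread. It was at 33.5, 10.5 and 25.0 CPM on day 1 and at 153, 152 and 151 CPM on day 2, a log2 difference of 2.64 ± 1.13 that did not pass (edgeR adjusted p = 0.102). Its SE draws on the spread in all 4 groups. Without the pair of anti-Gr1 libraries that match across days, its log2 difference was 2.73, with a smaller SE. It passed under 7 of the 19 alternatives tried for this comparison. Thrsp, a nuclear and cytosolic protein induced together with lipogenic enzymes, was at 8.31, 18.2 and 17.8 CPM and then at 45.7, 46.6 and 92.7 CPM. It rose 4.46-fold (log2 2.16 ± 0.68, edgeR adjusted p = 0.0406), with replicate 3 far above the others on day 2.

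Acaca, Fasn and Srebf1 passed under all 19 alternatives tried for this comparison, with lowest log2 differences of 1.17, 1.51 and 1.73. The calls of Elovl6 and Thrsp were less firm. Both were lost without scaling factors and whenever any 1 isotype sample was left out (adjusted p 0.0521 to 0.112 for Elovl6 and 0.0651 to 0.239 for Thrsp), and that of Thrsp also without either anti-Gr1 POD2 sample (0.0578 and 0.0585). Without scaling factors 584 genes were called higher and 6551 lower, against 1979 and 3079 with them.

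**Figure D2:**
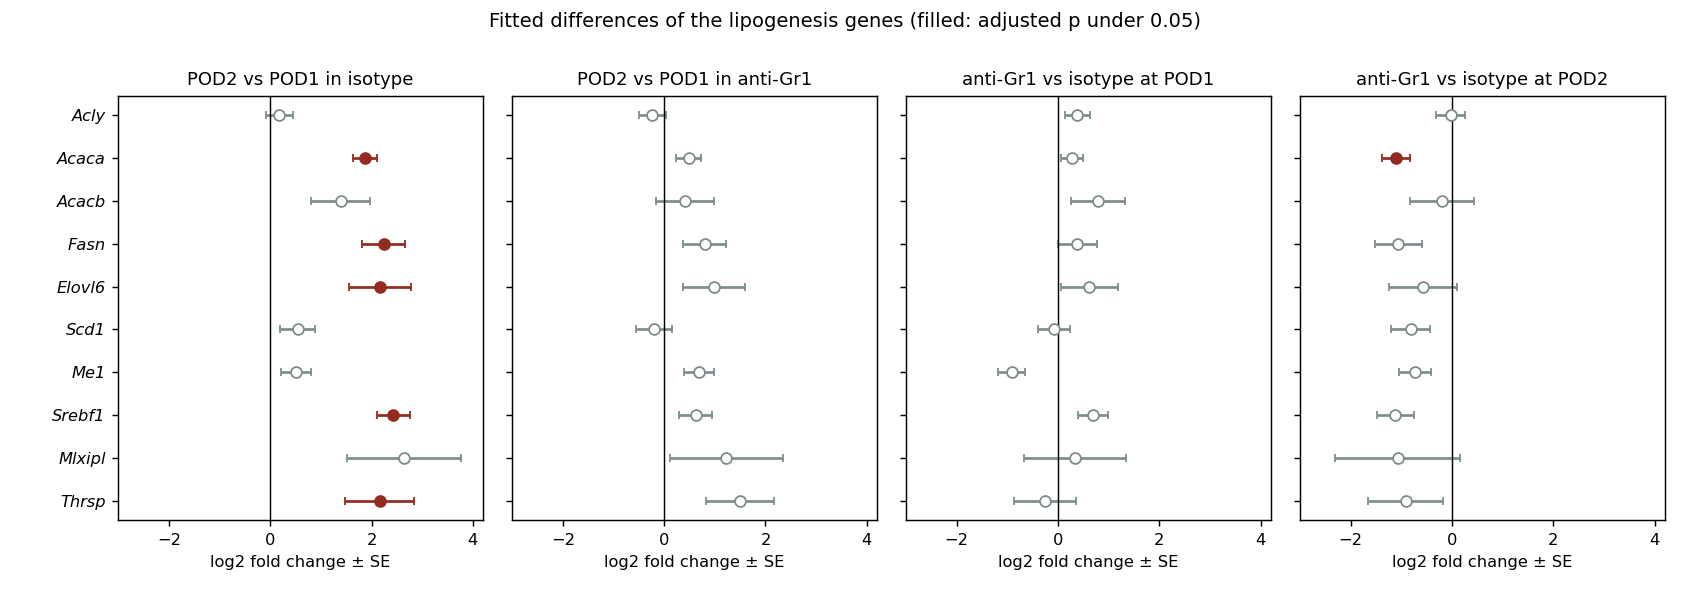
Fitted log2 fold change of each gene in 4 comparisons, with bars of 1 SE from edgeR's quasi-likelihood fit of 10 samples; filled points passed an adjusted p of 0.05. Filled points are Acaca, Fasn, Elovl6, Srebf1 and Thrsp for day 2 against day 1 in the isotype libraries and Acaca for anti-Gr1 against isotype at POD2.

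The counts for the genes around the pathway stand beside 12.6% of all genes called higher and 19.7% called lower between the isotype days. Of 13 genes that supply acetyl units and NADPH, 4 rose and 1 fell. Acss2 (acetyl-CoA from acetate, log2 1.89 ± 0.38, edgeR adjusted p = 0.00749), Aacs (acetoacetyl-CoA synthetase, 1.40 ± 0.13), Mpc2 (a subunit of the mitochondrial pyruvate carrier, 1.15 ± 0.32) and Slc25a1 (the mitochondrial citrate exporter, 0.99 ± 0.29) rose. G6pdx, the first enzyme of the pentose phosphate route to NADPH, went the other way and fell by 1.82 ± 0.23 on the log2 scale (edgeR adjusted p = 0.00163). It was at 68.5, 79.3 and 73.6 CPM on day 1 and at 24.7, 23.1 and 19.96 CPM on day 2.

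Of 14 tested genes of desaturation and elongation other than Scd1 and Elovl6, 7 rose and 1 fell. The desaturases that make polyunsaturated fatty acids were among the largest, Fads2 by 3.11 ± 0.80 and Fads1 by 2.32 ± 0.43 on the log2 scale (edgeR adjusted p = 0.0205 and 0.00524). The dehydratases Hacd3 and Hacd2 rose by 2.17 ± 0.43 and 1.38 ± 0.24 and the reductase Tecr by 1.71 ± 0.28, enzymes that complete each round of elongation. Hsd17b12 and the polyunsaturated elongase Elovl5 also rose, and Fads3 fell by 1.07 ± 0.28.

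Of 24 other regulators, 5 rose and 2 fell, a share of rises not far from the 12.6% of all genes, and their median log2 difference was 0.01. Insig1, which retains SREBP precursors in the endoplasmic reticulum and is itself an SREBP target, was at 22.4, 22.6 and 26.2 CPM on day 1 and at 113, 123 and 150 CPM on day 2. It rose by 2.42 ± 0.35 on the log2 scale (edgeR adjusted p = 0.00229). Scap, the SREBP escort, rose by 1.42 ± 0.25, Srebf2 by 0.79 ± 0.19, Stk11 by 0.69 ± 0.17 and Mid1ip1, a relative of Thrsp that binds acetyl-CoA carboxylase, by 0.66 ± 0.13. Mlxip, the paralogue of Mlxipl, fell by 1.38 ± 0.42, and Prkaa1, a catalytic subunit of the kinase AMPK that inhibits acetyl-CoA carboxylase, fell by 0.64 ± 0.20. Downstream, 3 of 10 tested genes of triglyceride assembly rose (Dgat1, Gpat4 and Agpat3, log2 1.16 ± 0.20, 0.80 ± 0.21 and 0.77 ± 0.21), and none fell. Of 16 genes of fatty acid oxidation, the opposing pathway, 3 rose (Cpt1a, Hadha and Acadl, log2 1.38 ± 0.32, 1.11 ± 0.24 and 0.67 ± 0.20), also near 12.6%, and none fell. These counts depended on scaling: without scaling factors 2 supply genes rose and 4 fell, 4 genes of desaturation and elongation rose and 3 fell, 2 regulators rose and 10 fell, and none of triglyceride assembly or oxidation passed, with Mid1ip1 and Acadl at -0.03 and -0.02. G6pdx, Insig1, Scap, Acss2, Aacs, Tecr and Fads1 passed in the same direction there.

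**Figure D3:**
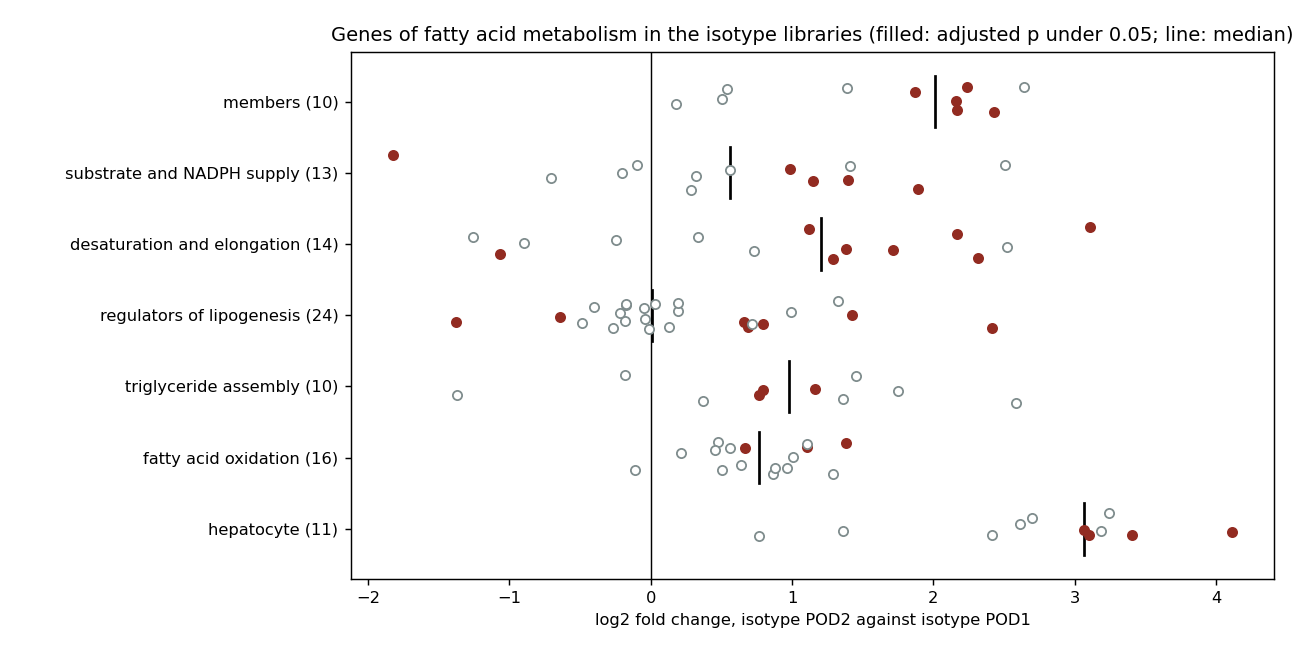
Log2 fold change of isotype POD2 against isotype POD1 for the 10 lipogenesis genes, 5 lists of neighbouring pathways and the hepatocyte markers, 1 point per tested gene. Filled points passed an adjusted p of 0.05 and black lines are medians, at 2.01 for the 10 genes, 0.01 for the other regulators and 3.07 for the hepatocyte markers.

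At POD2, most of the 10 genes had lower levels with the anti-Gr1 label than with isotype, but only Acaca passed the test, 1 of 10 against 9.22% of all genes called lower. Acaca was at 38.3, 35.2 and 38.6 CPM in the isotype libraries and at 17.7, 12.9 and 17.1 CPM in the anti-Gr1 libraries. It fell by 1.11 ± 0.27 on the log2 scale, 2.15-fold (edgeR adjusted p = 0.0193). This call was lost without scaling factors (adjusted p = 0.148) and when any 1 of the 4 samples compared was left out (0.0601 to 0.111). For 8 of the 10 genes, all but Acacb and Thrsp, the 3 anti-Gr1 libraries lay wholly below the 3 isotype libraries, as they did for 33.9% of all genes. This holds for levels scaled over 12 libraries, on which the gap of Acly was narrow (187 against 194 CPM).

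Several of the other differences were about as large as that of Acaca but had larger SEs. Each SE comes from 1 fit of all 4 groups, so it does not describe the spread of the POD2 libraries alone. Srebf1 was at 292, 293 and 339 CPM in the isotype libraries and at 129, 127 and 140 CPM in the anti-Gr1 libraries (log2 -1.12 ± 0.36, edgeR adjusted p = 0.0535). Fasn was at 273, 263 and 336 CPM against 128, 106 and 151 CPM (log2 -1.06 ± 0.47, edgeR adjusted p = 0.129). Mlxipl was at 153, 152 and 151 CPM against 56.1, 51.3 and 80.2 CPM (log2 -1.07 ± 1.24, edgeR adjusted p = 0.556). The groups did not overlap for any of these 3 genes, and none of them passed. Scd1 was at 400, 409 and 342 CPM against 233, 193 and 180 CPM (log2 -0.81 ± 0.39, edgeR adjusted p = 0.156). Me1 was at 44.7, 46.7 and 38.7 CPM against 29.2, 29.4 and 17.7 CPM (log2 -0.73 ± 0.32, edgeR adjusted p = 0.131). Elovl6 ranged from 47.1 to 49.5 CPM with isotype and from 29.9 to 30.01 CPM with anti-Gr1 (log2 -0.57 ± 0.67, edgeR adjusted p = 0.562). These 3 genes also lay wholly lower without passing. Thrsp (24.7 to 45.8 CPM against 45.7 to 92.7) and Acacb (29.6 to 43.1 CPM against 32.96 to 49.9) overlapped, and Acly (175 to 187 CPM against 194 to 211) had a log2 difference of -0.03 ± 0.29.

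The number called at POD2 depended on how many samples the near-identical libraries were taken to be and on which groups shared the fit. With only the 2 POD2 groups fitted, more than 5 of the 10 genes passed as lower (exact number given further on), against 19.5% of all genes in that setting. With all 12 libraries kept separate, Acaca, Fasn, Scd1, Srebf1 and Me1 passed as lower, 5 of 10, against 21.1% of all genes in that setting. Without the pair of libraries that match across days Acaca, Fasn and Srebf1 passed, 3 of 10, against 4.34% of all genes. Without scaling factors none passed, 442 genes were called lower and 3188 higher (1442 and 2518 with them), and the differences of Acacb and Acly were above 0.

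Over the 5 neighbouring lists 4 of 77 tested genes rose and 8 fell at POD2, against 16.1% of all genes called higher and 9.22% called lower. G6pdx again went against the enzymes. It was at 24.7, 23.1 and 19.96 CPM in the isotype POD2 libraries and at 106, 106 and 140 CPM in the anti-Gr1 POD2 libraries, and rose by 2.60 ± 0.25 on the log2 scale, 6.06-fold (edgeR adjusted p = 0.00142). Aacs fell by 1.05 ± 0.14 and Slc25a1 by 1.36 ± 0.33, and Mpc2 by 1.37 ± 0.36, so that 3 of 13 supply genes fell and 1 rose. Of 14 genes of desaturation and elongation, Hacd2 and Tecr fell (log2 -1.09 ± 0.27 and -1.15 ± 0.31), and of 10 genes of triglyceride assembly Dgat1 fell (-0.83 ± 0.22). Of 24 regulators 3 rose and none fell: Pparg, the nuclear receptor of fat cells (log2 1.05 ± 0.21, edgeR adjusted p = 0.00902), Prkaa1 (0.89 ± 0.22) and Mlxip (1.56 ± 0.45). Of 16 genes of fatty acid oxidation, Hadha and Acadl fell (log2 -1.02 ± 0.27 and -0.76 ± 0.22). Without scaling factors G6pdx, Pparg, Prkaa1 and Mlxip passed as higher and none of the named lower genes passed. Without the cross-day pair G6pdx, Aacs, Hacd2 and Tecr passed, and Slc25a1, Mpc2, Dgat1, Pparg, Prkaa1, Mlxip, Hadha and Acadl did not (adjusted p 0.0542 to 0.161).

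At POD1, none of the 10 genes was called between antibodies by edgeR, against 0.735% of all genes. The unadjusted p was under 0.05 for 2 of them, Me1 and Srebf1, and for 16.4% of all genes. DESeq2, which gave no p-value for Mlxipl in any comparison, called 1, Me1, and 5.02% of all genes. Me1 was at 29.8, 23.4 and 31.4 CPM in the isotype libraries and at 15.2, 10.7 and 18.8 CPM in the anti-Gr1 libraries. It was the only gene of the 10 whose groups did not overlap, lower in the anti-Gr1 libraries as were 10.1% of all genes, with a log2 difference of -0.91 ± 0.27 (edgeR adjusted p = 0.158). Srebf1 was at 52.4, 61.1 and 53.2 CPM against 58.8, 70.8 and 135 CPM (log2 0.69 ± 0.30, edgeR adjusted p = 0.297), and its high value belonged to replicate 3. Of the neighbouring lists only the supply list had a called gene at POD1, G6pdx, at 68.5, 79.3 and 73.6 CPM with isotype and 192, 193 and 126 CPM with anti-Gr1, which rose by 1.21 ± 0.20 on the log2 scale (edgeR adjusted p = 0.0365).

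Replicate 3 of anti-Gr1 POD1 set much of the spread at that time. Mlxipl was at 5.81, 3.62 and 76.3 CPM in the 3 anti-Gr1 POD1 libraries, Elovl6 at 6.37, 7.92 and 31.7 CPM, and Fasn at 52.6, 51.5 and 130 CPM. Thrsp was at 7.93, 4.61 and 23.9 CPM and Acaca at 9.77, 9.94 and 15.6 CPM. In each of these genes replicate 3 was the high library, as close to anti-Gr1 POD2 replicate 3 as given above. All 8 neutrophil markers passed as higher in the anti-Gr1 POD1 libraries, against 0.607% of all genes, and their part was not tested. Acly and Acacb had other extremes: Acly was at 173, 314 and 166 CPM and Acacb at 46.2, 7.61 and 24.6 CPM. Without the cross-day pair, Mlxipl and Me1 fell at POD1 (log2 -2.29, edgeR adjusted p = 0.0439, and log2 -1.13, adjusted p = 0.0391), 2 of 10 against 2.95% of all genes called lower in that setting, and the differences of Fasn, Elovl6 and Scd1 changed sign, to -0.21, -0.50 and 0.12, without passing. With the pair in place the log2 difference of Mlxipl was 0.34 ± 1.01 (edgeR adjusted p = 0.892).

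Between days in the libraries labelled anti-Gr1, edgeR called none of the 10 genes and 0% of all genes. The unadjusted p was under 0.05 for 1 of the 10 (Me1) and for 769 genes in all (4.91%). DESeq2, again with no p-value for Mlxipl, also called none. The log2 differences ran from -0.23 (Acly) to 1.498 (Thrsp), with a median of 0.66. Thrsp, at 7.93, 4.61 and 23.9 CPM on day 1 and at 39.8, 45.8 and 24.7 CPM on day 2, was the only gene whose groups did not overlap, as were 6.87% of all genes with day 2 higher, and its lowest day 2 and highest day 1 libraries were the cross-day pair. Without that pair Elovl6, Mlxipl and Thrsp rose (log2 2.07, 3.52 and 2.79), 3 of 10, against 3.26% of all genes called higher in that setting.

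The test of whether the antibody difference itself changed between days called none of the 10 genes in edgeR, against 5.6% of all genes. The unadjusted p was under 0.05 for 3 of the 10 (Acaca, Fasn and Srebf1) and for 24.7% of all genes. DESeq2, with no p-value for Mlxipl, called 2 of the 10 and 12.4% of all genes. The difference was -1.39 ± 0.35 for Acaca, -1.80 ± 0.47 for Srebf1 and -1.44 ± 0.60 for Fasn on the log2 scale (edgeR adjusted p = 0.054, 0.0591 and 0.181). With all 12 libraries kept separate these 3 genes passed, as did 16.6% of all genes. Without the cross-day pair none did.

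The summed hepatocyte markers moved with these results. Over 11 markers, the sum ranged from 8851 to 14922 CPM at isotype POD1 and from 132859 to 135950 CPM at isotype POD2. With the anti-Gr1 label it was 3240, 4207 and 36582 CPM on day 1, the last being replicate 3, and 29903 to 36106 CPM on day 2. Albumin dominates this sum. In the isotype comparison of days 4 of the 11 markers passed as higher (Alb, Ahsg, Apoa1 and Ttr), against 12.6% of all genes. The median log2 difference of the 11 was 3.07, while Hnf4a, a hepatocyte transcription factor, had 0.77 ± 0.59 and did not pass. Markers of other cells moved the opposite way between the isotype days. Macrophage markers (8 genes) summed to 4254 to 5908 CPM and then to 864 to 1253 CPM, and 7 of 8 fell, against 19.7% of all genes. Sinusoidal endothelial markers (8 genes) summed to 4694 to 5704 CPM and then to 1091 to 1451 CPM, and 8 of 8 fell.

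At POD2 the anti-Gr1 libraries had higher markers of those other cells. Macrophage markers summed to 3121 to 4121 CPM and endothelial markers to 2799 to 4478 CPM. Of these, 7 of 8 and 8 of 8 passed as higher than in isotype, against 16.1% of all genes. Neutrophil markers (8 genes) summed to 3032 to 4460 CPM against 46.3 to 111 CPM, and 8 of 8 passed. Pancreatic acinar markers (14 genes) ranged from 87.0 to 374813 CPM over the 12 libraries and were highest in isotype POD2 replicate 3, also the highest library for Acaca, Acacb, Fasn, Srebf1 and Thrsp. Adipocyte markers, 9 of 10 in the table, summed to 408 to 939 CPM at isotype POD1, 1150 to 1308 CPM at isotype POD2, 407 to 826 CPM at anti-Gr1 POD1 and 384 to 427 CPM at anti-Gr1 POD2, so that this sum was highest at isotype POD2, where most of the lipogenesis genes also had their highest mean. Car3, a carbonic anhydrase of fat that liver also expresses, made up most of the sum at isotype POD2: it ranged from 85.3 to 105 CPM at isotype POD1, from 931 to 1064 CPM at isotype POD2 and from 73.0 to 95.4 CPM at anti-Gr1 POD2. It rose between the isotype days (log2 3.30 ± 0.88, edgeR adjusted p = 0.0229) and was lower with the anti-Gr1 label at POD2 (log2 -3.41 ± 1.03, adjusted p = 0.0425). Of the other 8, Fabp4, a fatty acid carrier of fat cells and endothelium, fell between the isotype days (log2 -2.03 ± 0.52, edgeR adjusted p = 0.0191) and none passed at POD2. Retn, Adipoq, Cidec, Plin1, Cfd and Pnpla2 were also lower on isotype day 2 without passing, by log2 differences from -3.35 (Cidec) to -0.28 (Pnpla2). Adrb3 went the other way (1.24 ± 1.00) and did not pass. The sum thus moved against most genes of its list between these days. Adipoq, which defines fat cells, was at 0.0693 to 6.58 CPM over the 12 libraries, and 1 listed gene at most was at 0 in a library. Cholangiocyte markers (5 genes) summed to 281 to 582 CPM and erythroid markers (5 genes) to 94.9 to 13379 CPM. The part of these cell types in the lipogenesis results was not tested.

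**Figure D4:**
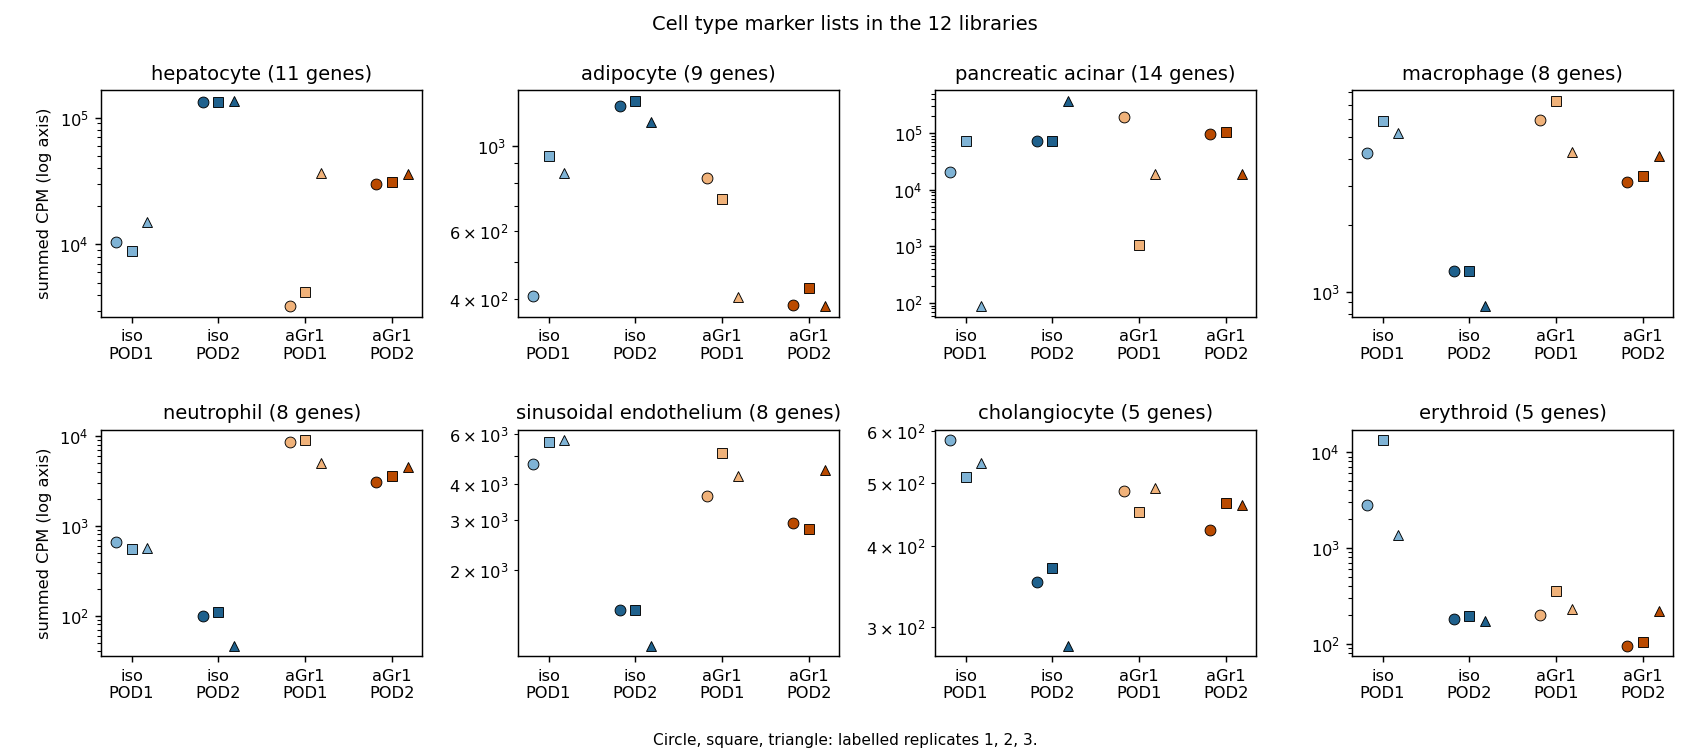
Summed level of 8 cell type marker lists in the 12 libraries, in CPM on a log axis, by antibody and day; points are libraries. Hepatocyte markers are highest in isotype POD2 (132859 to 135950 CPM), where macrophage and endothelial markers are lowest.

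Set against the summed hepatocyte markers, the differences pointed the other way. Per 1000 CPM of those markers, Fasn was at 6.95, 5.21 and 4.204 CPM in the isotype POD1 libraries, at 2.06, 1.98 and 2.47 CPM in isotype POD2 and at 4.27, 3.39 and 4.18 CPM in anti-Gr1 POD2. Srebf1 was at 5.02, 6.91 and 3.56 CPM, at 2.20, 2.21 and 2.49 CPM and at 4.32, 4.07 and 3.88 CPM in the same groups. On this scale all 10 genes were lower at isotype POD2 than at isotype POD1. All 10 were also lower there than at anti-Gr1 POD2, with no overlap in either case. The marker sum itself differed more between these group means than any of the 10 genes did, so lower ratios had to follow. Against Hnf4a alone, a measure added after seeing the data, Acaca, Fasn, Elovl6, Srebf1 and Mlxipl were higher at isotype POD2 than at POD1 without overlap, Acly and Me1 were lower, and Acacb, Scd1 and Thrsp overlapped. Fasn per CPM of Hnf4a was 0.212, 0.266 and 0.171 on day 1 and 0.482, 0.477 and 0.671 on day 2. Between antibodies at POD2, 7 of the 10 overlapped on the Hnf4a scale and Acacb, Acly and Elovl6 were higher with the anti-Gr1 label. At POD1, Acaca, Acacb, Fasn, Elovl6 and Srebf1 were higher with the anti-Gr1 label on the Hnf4a scale without overlap and the other 5 overlapped, and between the anti-Gr1 days all 10 overlapped. On the scale of the summed markers all 10 overlapped in both of these comparisons. The direction of the genes relative to hepatocyte markers thus differed with the hepatocyte measure used, and these ratios were not tested. Shares over all genes were not computed on either scale.

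**Figure D5:**
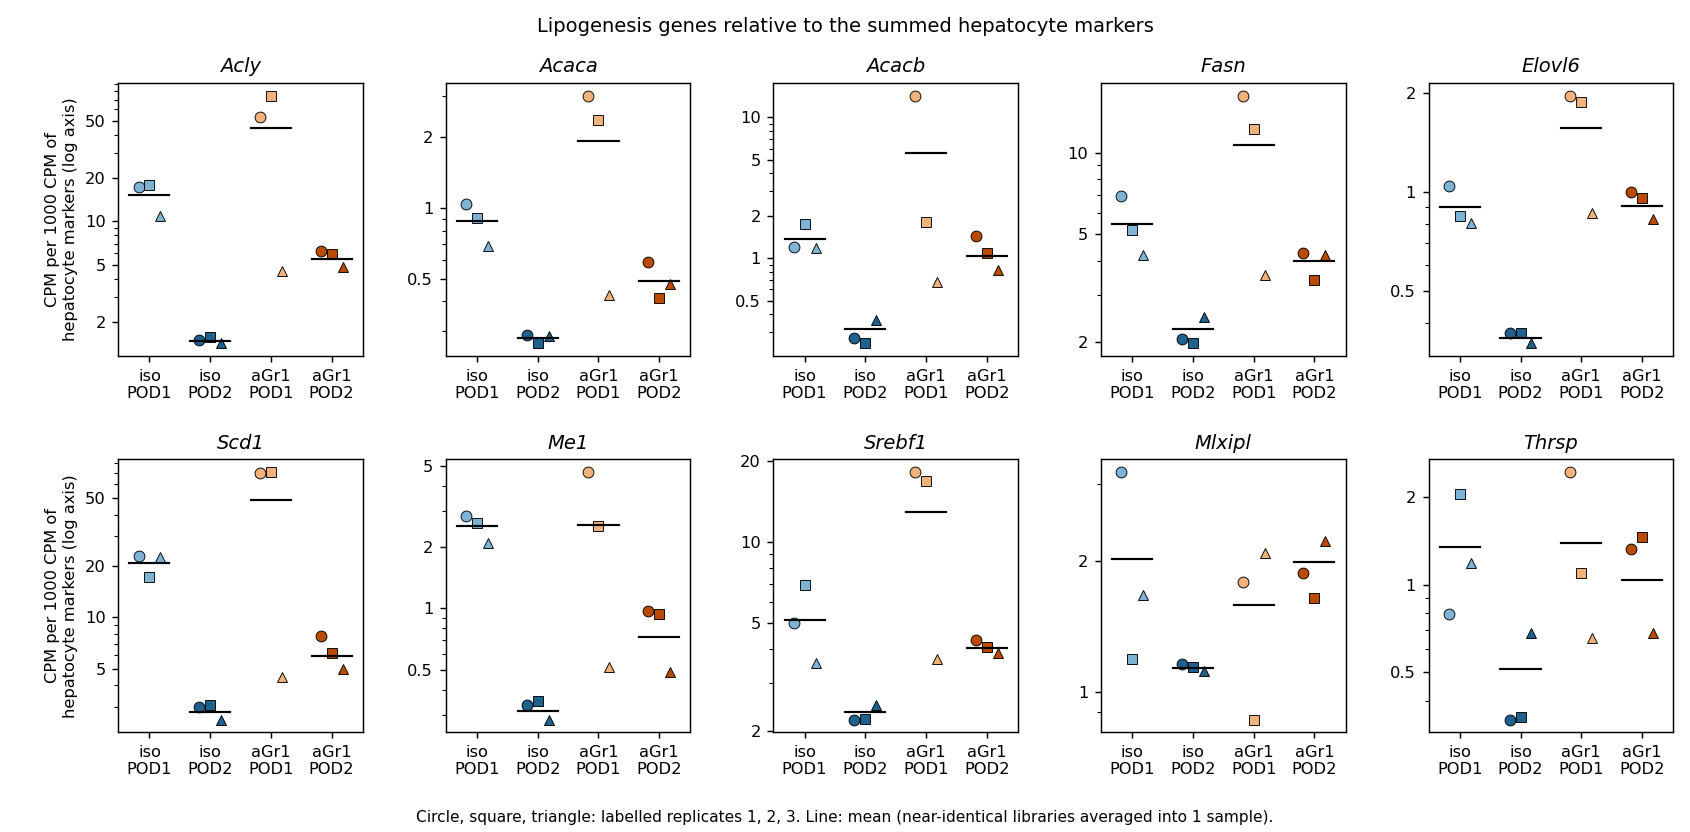
Level of each gene per 1000 CPM of the 11 summed hepatocyte markers in the 12 libraries, on a log axis, by antibody and day; points are libraries and lines are group means. The group mean of each of the 10 genes is lowest in isotype POD2.

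Among themselves, the genes fell along a range from flat to very variable over the 10 samples. Acly varied least, with a mean absolute deviation of 0.17 in log2 CPM and its highest value in anti-Gr1 POD1 replicate 2. Mlxipl varied most, by 5.31 in log2 CPM from its lowest to its highest sample. Fasn and Srebf1 had the closest profiles of any pair, with centred log2 CPM that differed by 0.20 on average, and Fasn was also the nearest profile to Acaca (0.25) and to Elovl6 (0.28). Acly and Scd1 were nearest to each other (0.36). Outside the 10 genes, the profiles closest to the mean of Acly, Acaca, Fasn, Elovl6 and Scd1 were those of Sdc4 (0.10), Adipor2 (0.10), Phf11c (0.12), Tbc1d31 (0.12), Selenoi (0.13) and Txndc5 (0.13). These are descriptions over 10 samples that share library composition.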

How the data were processed

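Poly A RNA was sequenced from 12 hepatocyte libraries. The table the authors deposited holds raw counts, whole numbers for each gene. Cutadapt, STAR, HTSeq and DESeq2, with the build GRCm38, appear in the submitters' processing notes; tool versions, annotation and strandedness were not given in the sources used here. Each of the 12 columns carries a sample's description as its name, and 0 were left over. GENCODE M21 held 18208 of 18227 identifiers. In 15 cases a symbol stood for 2 identifiers, none of them among the 10 genes.

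Counts were tested with edgeR 4.0.16 (limma 3.58.1, R 4.3.3): filterByExpr, TMM scaling and robust quasi-likelihood fits of 4 group means over 10 samples after near-identical libraries of the same group (chi-square per gene under 10, over genes with at least 20 counts in the pair) were summed. This left 15647 genes, over which p-values were adjusted by the Benjamini-Hochberg method. The threshold was an adjusted p of 0.05, and SE is the log2 fold change over the root of F. The method was tested on simulated data. Log2 CPM used a prior count of 1. The lowest count of a member was 70, in Mlxipl, and the highest 6066, in Acly. Means are over samples, with near-identical libraries averaged first. Replicate numbers did not pair the samples.

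Alternatives were DESeq2 1.42.0, all 12 libraries separate, the cross-day pair left out, no scaling factors, no filter, the 50 most abundant genes left out, only the 2 groups compared, a replicate block, and each sample left out. The 10 genes and the lists were chosen with earlier results of these data known. Genes of a list were named by a rule, up to 3 called genes per list and comparison with the smallest p, or the first if none passed. Mpc2, Slc25a1, Fads2, Fads3, Hacd3, Hsd17b12, Elovl5, Srebf2, Stk11, Mlxip and Prkaa1 in the isotype comparison, Mpc2 at POD2 and Scd2 were named after their values were seen, mostly to complete the lists.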

Additional observations from a re-analysis of the deposited data

Results flagged for a closer look

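For 3 of 77 tested genes in the 5 neighbouring lists (3.9%), the antibody difference itself changed between days in edgeR's test, against 5.6% of all genes tested. The log2 difference of effects was -1.28 for Aacs (adjusted p = 0.0156), 1.39 for G6pdx (adjusted p = 0.039) and -1.39 for Dgat1 (adjusted p = 0.0346). Aacs was at 17.1 to 17.8 CPM in isotype POD1, 45.2 to 51.6 CPM in isotype POD2, 19.9 to 20.96 CPM in anti-Gr1 POD1 and 19.9 to 23.3 CPM in anti-Gr1 POD2. Without the cross-day pair none of the 3 passed (adjusted p = 0.0905, 0.19 and 0.141, in the same order), and each lost its call when at least 1 sample of the POD2 groups was left out.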

How the results depend on the processing

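Genes called between antibodies at POD1 (115) numbered 525 with all 12 libraries separate, 793 without the cross-day pair, 2301 with both, 785 with DESeq2, 70 without scaling factors, 52 in the 2 groups alone and 298 with the replicate block; of the 10 genes, 2, 2 and 1 were called without the cross-day pair, with both and with DESeq2. At POD2 (3960) they numbered 6404, 1650 and 6338 in the first 3 settings and 5980 with the block, and the members called (1) were 5, 3, 7, 2 with DESeq2, 0 without scaling factors, 7 in the 2 groups alone and 5 with the replicate block. For the difference of effects (877) they numbered 2539, 76, 2030, 1933 with DESeq2 and 2007 with the block, and the members 3 with all libraries separate, 3 with both, 2 with DESeq2 and 3 with the replicate block. Between the isotype days (5058) all genes called numbered 7637 with both changes. The members called (5, against 32.3% of all genes) were 3 without scaling factors (45.6%) and 8 in the 2 groups alone (45.4%). Between the anti-Gr1 days (0) they numbered 545 without the cross-day pair and 2564 with both, and the members 3 and 6. Replicate numbers did not pair the samples: correlations of same-numbered deviations ran from -0.29 to 0.36.

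Log2 differences changed sign at POD1 without the cross-day pair, and with both, for Fasn (-0.21 and -0.21), Scd1 (0.12 and 0.12), Elovl6 (-0.50 and -0.50) and Mlxipl (-2.29 and -2.30, and -0.32 with the replicate block). In the difference of effects they did so for Mlxipl (0.79 and 0.79) and Thrsp (0.55 and 0.71). Without scaling factors they did so at POD2 for Acacb (0.26) and Acly (0.39), in the difference for Acly (0.12) and Thrsp (0.0015), and between the isotype days for Acly (-0.51), Scd1 (-0.15) and Me1 (-0.17). The cause was not tested.

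Leaving out 1 sample at a time gave 21 to 1361 genes at POD1, 806 to 4843 at POD2, 0 to 2257 for the difference, 1587 to 6290 between the isotype days and 0 to 1149 between the anti-Gr1 days. The members called ranged from 0 to 2, 0 to 3, 0 to 2, 3 to 7 and 0 to 5 in that order. Log2 differences ranged at POD1 from -0.23 to 0.60 (Fasn), -0.33 to 0.24 (Scd1), -0.51 to 0.99 (Elovl6), -2.31 to 0.84 (Mlxipl) and -1.25 to 0.12 (Thrsp). At POD2 they ranged from -0.43 to 0.087 (Acacb) and -0.14 to 0.023 (Acly), in the difference from -0.23 to 0.50 (Me1), -2.02 to 1.25 (Mlxipl) and -1.14 to 0.34 (Thrsp), and between the anti-Gr1 days from -0.052 to 1.09 (Acacb), -0.38 to 0.098 (Acly) and -0.38 to 0.012 (Scd1). Where a POD2 arm was left with 1 sample, that sample was assumed to vary like the other groups. With n = 2 at POD2, Mlxipl, the most variable gene, did not pass between the isotype days at a 6.24-fold difference. Its spread was estimated over all 4 groups, and its anti-Gr1 POD1 libraries ran from 3.62 to 76.3 CPM. It passed under 7 of the 19 alternatives for that comparison.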

Other observations

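Scd2, the desaturase paralogue prominent in brain, was at 79.2 to 118 CPM in isotype POD1, 68.0 to 108 CPM in isotype POD2, 113 to 163 CPM in anti-Gr1 POD1 and 129 to 144 CPM in anti-Gr1 POD2. Its isotype libraries overlapped between days, whereas those of Scd1 were narrowly apart (339 against 342 CPM). Neither gene passed between the isotype days. Pparg was at 10.9 to 13.6, 8.08 to 9.98, 19.9 to 22.6 and 14.3 to 20.9 CPM in the same 4 groups, with the libraries of each antibody apart on both days.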
